A study of Mus musculus with 3 samples.

Results

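The 9 genes described here encode proteins that move bile acids, organic anions and phospholipids across the hepatocyte membrane: Slc51a, Slc51b, Slc10a1, Slco1a1, Slco1a4, Slco1b2, Slco2b1, Slc22a7 and Atp8b1. They were chosen by gene symbol from the 37620 genes in the deposited tables, and all 9 symbols matched a row. The study sequenced mRNA of C57BL/6 mouse primary hepatocytes at passage 1, with 2 libraries from cells given tauroursodeoxycholic acid (TUDCA), labelled 100 mM for 24 h, and 1 library from cells given the solvent DMSO, with no time in the labels. TUDCA is the taurine conjugate of ursodeoxycholic acid, a bile acid used as a drug in cholestasis. All cultures shared the rest of the labelled procedure, which was collagenase perfusion of the liver and plating on gelatin in medium with fetal bovine serum and insulin. Age and sex of the mice are not stated in the labels. The dose is printed as labelled, and an error of its unit is possible. Culture time, if it differed between the groups, and TUDCA cannot be told apart. The series names 2 independent experiments but does not tie libraries to them or to separate animals, so their replicate spread, and p-values resting on it, may be technical only.

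Hepatocytes take up bile acids from portal blood at the basolateral (sinusoidal) membrane, chiefly through the sodium-coupled carrier NTCP (Slc10a1) and the sodium-independent organic anion transporting polypeptides, or OATPs (the Slco genes). They secrete bile acids into bile at the opposite, canalicular membrane. When bile acids build up, the bile acid receptor FXR (Nr1h4) induces the heteromeric exporter OSTα-OSTβ (Slc51a and Slc51b), which returns bile acids to blood. Both subunits are needed for transport. Atp8b1 is an exception to the basolateral theme: its product, FIC1, is a phospholipid flippase of the canalicular membrane that works with a CDC50 subunit, and its loss causes cholestasis in humans.

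The cultures held the transcripts of hepatocytes. The 9 hepatocyte markers measured added up to 14662 and 12630 RPKM in the TUDCA libraries, against 11464 RPKM in DMSO, all of them above 1 RPKM. Alb was the largest part of these sums, at 7177 and 6111 RPKM with TUDCA and 5771 RPKM in DMSO. Cps1 was low, at 5.79 and 6.08 RPKM with TUDCA and 2.62 RPKM in DMSO. How far the cultures kept the traits of hepatocytes was not tested. Fgb, a fibrinogen chain, and the factor Hnf4a were called higher, against 1.77% of all genes tested. The other 7 were not called. Hnf4a lost its call under median centring and without a variance trend, as given below. The part of hepatocyte content in the carriers' levels was not tested. RPKM is reads per kilobase of gene and scaled to the reads of the library. The libraries held 9757547 and 10575699 reads for TUDCA replicates 1 and 2, against 10774289 reads for DMSO, so that 1 read on a 1 kb gene equalled 0.102 and 0.0946 RPKM with TUDCA and 0.0928 RPKM in DMSO. Among markers of other liver cells, those of Kupffer cells and macrophages summed to 263.7 and 273.7 RPKM with TUDCA and 283.2 RPKM in DMSO. Cd68 was the largest part of these sums, at 154.3 and 169.4 RPKM with TUDCA and 170.4 RPKM in DMSO. Of the 9 markers, 5 had positive and 4 had negative mean differences. None of the 9 was called, against 2.65% of all genes tested. Endothelial markers summed to 4.69 and 3.83 RPKM with TUDCA, against 2.89 RPKM in DMSO. Stellate cell and fibroblast markers summed to 12.3 and 10.8 RPKM with TUDCA, against 13.8 RPKM in DMSO. Leukocyte markers summed to 0.896 and 0.631 RPKM with TUDCA and 0.466 RPKM in DMSO, with Cd3e at 0 in every library. In bulk samples such as these, fewer cells of a type and less RNA per cell cannot be told apart.

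The sequences before the start of 3 genes are shown because they encode the exporter pair, of which 1 subunit was called and the other was not detected, and Slco1b2, which had the next largest difference from DMSO. They come from RefSeq (GRCm38.p6), whose promoter table holds 10 windows for 7 of the 9 genes (all but Slc22a7 and Atp8b1). Bases before the start are counted as negative numbers from the RefSeq start. Capitals mark the nuclear receptor hexamers AGGTCA and GGGTCA on either strand. The Slc51b stretch lies at chr9:65422948-65423023 on the minus strand and ends 8 bases into the first exon that GENCODE M21 annotates for the gene. The Slc51a stretch is chr16:32487880-32488129 on the minus strand, and that of Slco1b2 is chr6:141629268-141629517 on the plus strand.
Slc51b: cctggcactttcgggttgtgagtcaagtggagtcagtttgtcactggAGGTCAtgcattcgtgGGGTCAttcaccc
Slc51a: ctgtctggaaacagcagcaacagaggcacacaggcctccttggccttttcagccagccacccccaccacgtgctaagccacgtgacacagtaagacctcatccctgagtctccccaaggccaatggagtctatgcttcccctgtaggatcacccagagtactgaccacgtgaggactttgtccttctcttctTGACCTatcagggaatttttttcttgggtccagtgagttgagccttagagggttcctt
Slco1b2: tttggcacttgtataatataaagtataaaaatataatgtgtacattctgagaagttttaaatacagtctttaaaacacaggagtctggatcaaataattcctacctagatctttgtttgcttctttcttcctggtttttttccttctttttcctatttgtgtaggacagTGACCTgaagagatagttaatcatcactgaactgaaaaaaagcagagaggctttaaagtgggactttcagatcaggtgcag

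AGGTCA occurred on either strand in 16.3% of the 32851 RefSeq promoter windows of 300 bases, and GGGTCA in 13.7%. The Slc51b window held AGGTCA at -203 and GGGTCA at -187. FXR binds as a dimer with RXR to an inverted repeat of such hexamers with 1 base between them, spelled AGGTCANTGACCT. The closest match to these letters in the Slc51b window, gggtcattcaccc at -187, had 3 mismatches, a degree of match found in 11.4% of all windows. Slco1b2 held aggacagtgacct at -88 with 1 mismatch, which 27 windows, or 0.0822% of all, reached. Slc51a, Slc10a1 and Slco1a1 had 3 mismatches at best. Hexamers of the same letters also lay in windows of Slc10a1, Slco1a1 and Slco2b1, none of which was called. The limits on mismatches were chosen after the sequences were seen, and a match is a description of letters, not of binding.

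Slc51b (ENSMUSG00000053862), the beta subunit of the exporter, was the only one of the 9 genes called higher with TUDCA, at an adjusted p under 0.05 in limma, a test that called 1.77% of all genes tested higher. Its level was 6.51 and 34.1 RPKM in the TUDCA libraries, against 1.52 RPKM in DMSO. As whole reads recovered from the RPKM values, these levels rested on 31 and 176 reads with TUDCA and on 8 reads in DMSO. Both TUDCA libraries therefore lay above DMSO, and replicate 2 stood far above replicate 1. The RPKM ratio to DMSO was 4.28 in TUDCA replicate 1 (95% interval 1.92 to 10.8) and 22.4 in replicate 2 (11.1 to 52.7). Replicate 2 was 5.24 times replicate 1 (3.56 to 7.94), beyond counting error alone. These exact intervals compare single libraries and cover counting error only.

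On the log2(RPKM + 1) scale, which understates changes of low genes, Slc51b was 1.57 and 3.80 above DMSO in TUDCA replicates 1 and 2. The mean difference was 2.69 ± 0.28 (SE, limma adjusted p = 4.0e-18). This p takes the spread common to genes of that level, an SD of 0.232, in place of the gene's own SD between the TUDCA libraries of 1.57. When limma was run with robust estimation, which lets genes with an outlying variance keep it, Slc51b was not called (adjusted p = 0.880). It was not called without a filter on low values either (adjusted p = 0.649), where no gene passed. With 3 libraries, an exact permutation test of a single gene cannot give a one-sided p below 0.333. The difference between the TUDCA libraries was at least as large as that of Slc51b for 8 of the 11300 genes tested, Slc51b included, or 0.0708% of them.

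Slc51a (ENSMUSG00000035699), the alpha subunit, had 0 reads in all 3 libraries, which allows up to 3 reads in each at a one-sided 95% limit. For a gene of 1 kb this limit corresponds to 0.307 and 0.284 RPKM in the TUDCA libraries and 0.278 RPKM in DMSO. The longest coding transcript of Slc51a has 2618 bases, and the limit would be lower if that length was counted. The transcript of the partner subunit was thus not detected at this depth in the same TUDCA libraries that held 31 and 176 reads of Slc51b. The exons of Slc51a share 17.7% of their length with Pcyt1a on the opposite strand, and whether counting used strand is not stated in the labels. Pcyt1a, which encodes an enzyme of phosphatidylcholine synthesis, had 53.9 and 39.2 RPKM with TUDCA and 47.1 RPKM in DMSO. For Slc51b the shared part was 12.8% of exon length, with Rasl12 on the opposite strand, which had 14 and 31 reads with TUDCA and 16 reads in DMSO. These shares are of exon length in GENCODE M21, which was 709 bases for Slc51b. The smallest length that gave whole reads for Slc51b was 488 bases, so the counted exons differed and the shares may too. The part of these overlaps in the counts was not tested.

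**Figure D1:**
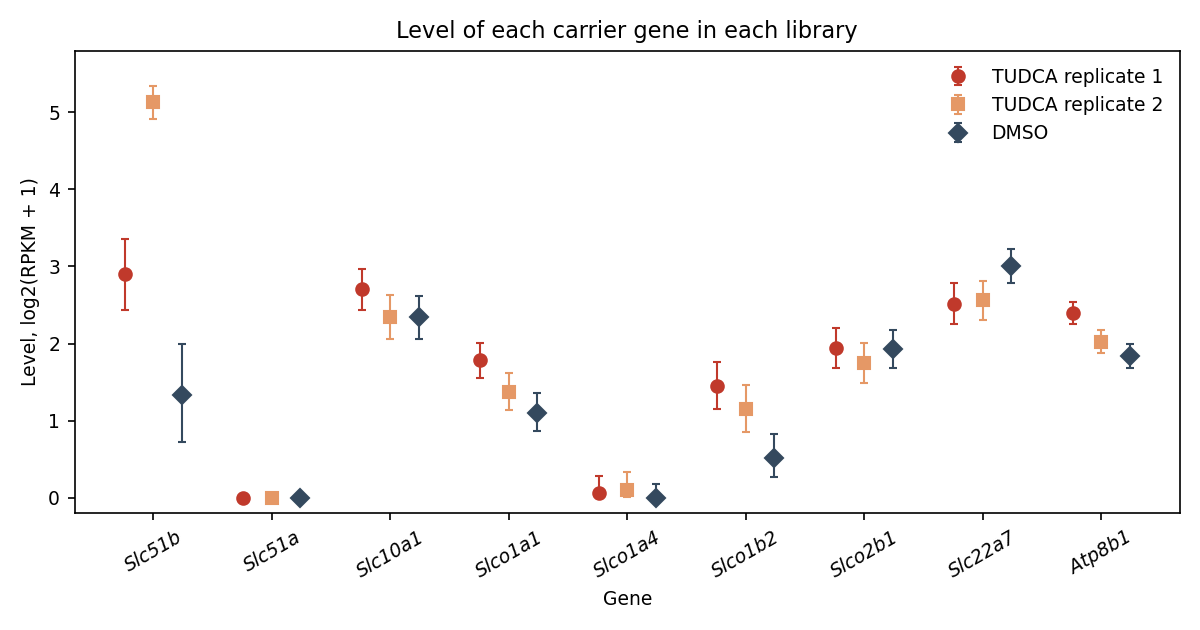
Level of each of the 9 genes in the 3 libraries as log2(RPKM + 1), with TUDCA replicates 1 and 2 to the left of DMSO and bars for the 95% exact Poisson interval of the reads (none is drawn for Slc51a, at 0 reads throughout). Slc51b stands at 6.51 and 34.1 RPKM with TUDCA and at 1.52 RPKM in DMSO, while no other gene exceeds 7.05 RPKM.

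The bile duct epithelium also makes this exporter, so markers of cholangiocytes are given beside Slc51b. Of 8 such markers, 5 were tested, with 1 called higher and 1 lower, against 1.77% and 0.876% of all genes tested. Spp1, a secreted phosphoprotein, had 767.5 and 578.2 RPKM with TUDCA and 387.5 RPKM in DMSO, a call lost under median centring (limma adjusted p = 0.136) and without a variance trend (0.134). The tight junction gene Cldn4 had 57.1 and 51.8 RPKM with TUDCA and 107.3 RPKM in DMSO. The keratin gene Krt19 had 9.50 and 17.0 RPKM, against 10.7 RPKM in DMSO. Sox9 was higher in both TUDCA libraries, at 26.1 and 31.7 RPKM, against 20.4 RPKM in DMSO. Slc4a2 was lower in both, at 65.7 and 84.2 RPKM, against 85.8 RPKM in DMSO. None of these 3 was called. Krt7 and Epcam stayed under 1 RPKM in each library and Cftr was at 0. The summed level of the list was 926.6 and 763.4 RPKM with TUDCA, against 612.2 RPKM in DMSO. Spp1 set this order, since the sums without it were 159.1 and 185.2 RPKM with TUDCA and 224.7 RPKM in DMSO. Cldn4 was the largest part of that DMSO sum, so neither sum stands for every marker. The part of these cells in the level of Slc51b was not tested.

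The genes whose pair of differences from DMSO lay nearest to that of Slc51b among the 11300 tested were Nr0b2, Gstm3 and Pck1, at Euclidean distances of 0.33, 0.73 and 0.91 on the log2(RPKM + 1) scale. This likeness is taken over both TUDCA libraries, which share 1 DMSO library. Nr0b2, the corepressor SHP, had 60 and 273 reads with TUDCA and 14 in DMSO. Gstm3, a glutathione transferase, had 380 and 1080 reads with TUDCA, against 75 in DMSO, and Pck1, an enzyme of gluconeogenesis, had 90 and 206 reads, against 7. Pck1, at 0.354 RPKM in DMSO, passed the filter on low values only through the TUDCA libraries. Under robust estimation Nr0b2 lost its call as Slc51b did (limma adjusted p = 0.855), while Gstm3 and Pck1 kept theirs.

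**Figure D2:**
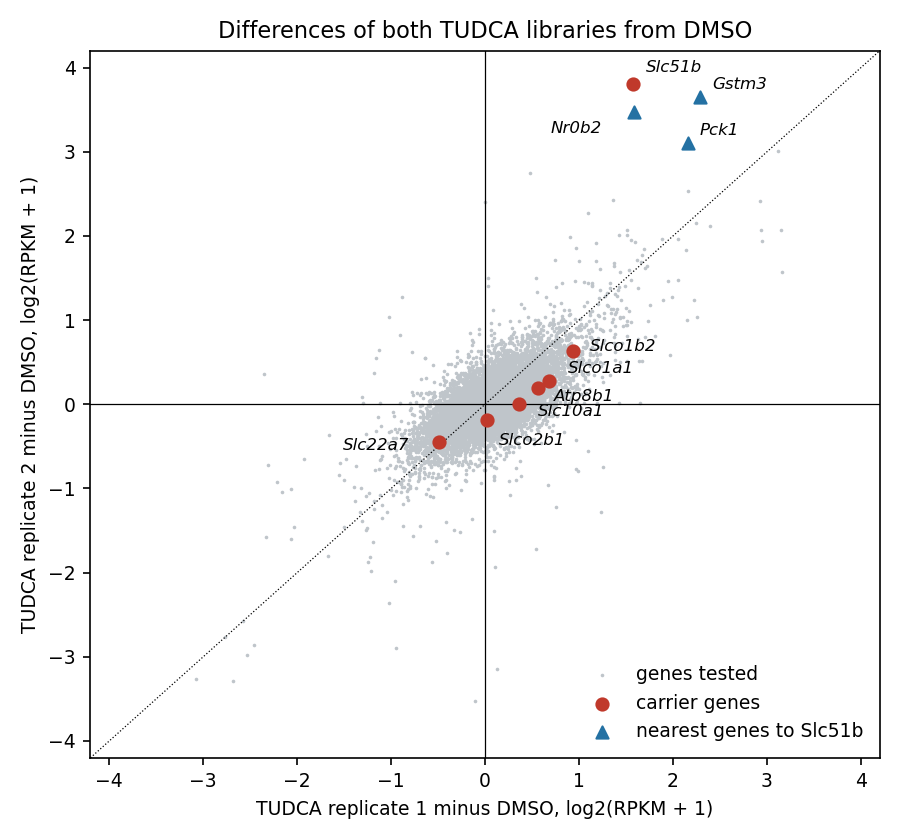
Difference from DMSO in TUDCA replicate 1 (horizontal) and TUDCA replicate 2 (vertical) on the log2(RPKM + 1) scale for the 11300 genes tested in grey, with the 7 carrier genes tested in red, the nearest genes to Slc51b in blue and a dotted line of equal differences. Both axes share 1 DMSO library, which alone spreads points along that line. Slc51b lies at 1.57 and 3.80, and the other 6 carrier genes lie between -0.49 and 0.94.

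The test took in genes that averaged 1 RPKM or more, among them 7 of the 9 carrier genes and neither Slc51a nor Slco1a4. Of the 7, 1 was called higher, 0 were called lower and 6 had no call. Over all 11300 genes tested, 1.77% were called higher, 0.876% lower and 2.65% in either direction. At an unadjusted p under 0.05, which 10.8% of all genes tested reached in limma, Slco1b2 joined Slc51b. The median difference of the 7 genes was 0.37, against 0.04 over all genes tested. Slco1b2 passed the filter only through the TUDCA libraries, so neither the count nor the median stands for all 9 genes.

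Among the uptake carriers, NTCP (Slc10a1, ENSMUSG00000021135) had 5.52 and 4.07 RPKM in the TUDCA libraries, against 4.06 RPKM in DMSO. These levels came from 85 and 68 reads with TUDCA and from 69 in DMSO. TUDCA replicate 2 and DMSO lay side by side, with replicate 1 above them by less than the counting error (ratio to DMSO 1.36, 95% interval 0.978 to 1.90). The mean difference was 0.19 ± 0.30 (SE, limma adjusted p = 0.931).

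Slco1b2 (ENSMUSG00000030236), the mouse relative of the human liver OATP1B carriers, had 1.73 and 1.21 RPKM with TUDCA and 0.424 RPKM in DMSO. This was 37 and 28 reads with TUDCA, against 10 reads in DMSO. Both TUDCA libraries lay above DMSO beyond counting error, with RPKM ratios of 4.09 (95% interval 1.99 to 9.21) and 2.85 (1.34 to 6.58). The TUDCA libraries did not differ from each other beyond it (ratio of replicate 2 to replicate 1 of 0.698, interval 0.412 to 1.17). The mean difference of 0.79 ± 0.32 (SE) did not pass (limma adjusted p = 0.240), nor did it under the 7 alternatives that fitted the gene (adjusted p of 0.0732 to 0.578).

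Slco1a1 (ENSMUSG00000041698), an OATP that male mouse liver expresses more than female liver, had 2.44 and 1.59 RPKM with TUDCA and 1.15 RPKM in DMSO. The reads behind this were 79 and 56 with TUDCA, against 41 in DMSO. Replicate 1 exceeded DMSO beyond counting error (ratio 2.13, interval 1.44 to 3.18) and replicate 2 did not (ratio 1.39, interval 0.914 to 2.14). The mean difference was 0.48 ± 0.32 (SE, limma adjusted p = 0.669). Slco1a4 (ENSMUSG00000030237), an OATP that also takes up digoxin, had 1 and 2 reads with TUDCA and 0 in DMSO, all within the same one-sided limit of 3 reads for a count of 0. Slco1a1, Slco1a4 and Slco1b2 all lie on chromosome 6. Of the 50-base words in the longest coding transcript, 2.26% for Slco1a1 and 2.73% for Slco1a4 occur in other genes, mostly each other's family, so some of their reads could have been assigned either way.

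Slco2b1 (ENSMUSG00000030737), an OATP found beyond the liver too, had 2.84 and 2.35 RPKM with TUDCA and 2.80 RPKM in DMSO, from 68 and 61 reads against 74. All 3 libraries overlapped within counting error. The mean difference was -0.08 ± 0.31 (SE, limma adjusted p = 0.981), and the single differences of 0.02 and -0.18 had opposite signs. Antisense genes share 7.91% and 1.31% of its exon length.

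Slc22a7 (ENSMUSG00000067144), the organic anion transporter OAT2, differed in the other direction from most of the group. It had 4.73 and 4.90 RPKM with TUDCA and 7.05 RPKM in DMSO, from 82 and 92 reads against 135 reads. The TUDCA libraries were nearly equal and both lay below DMSO. Their RPKM ratios to DMSO were 0.671 (95% interval 0.503 to 0.889) and 0.694 (0.527 to 0.912). The mean difference of -0.47 ± 0.29 (SE) did not pass (limma adjusted p = 0.638), although the gene's own SD between the TUDCA libraries was only 0.029. It remained negative under all 8 alternatives that were tested, with adjusted p of 0.403 to 0.661.

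Atp8b1 (ENSMUSG00000039529) had 4.25 and 3.07 RPKM with TUDCA and 2.57 RPKM in DMSO. It had the most reads of the 9 genes in each library, 267 and 209 with TUDCA and 178 in DMSO. Replicate 1 stood above DMSO (ratio 1.66, interval 1.37 to 2.01) and above replicate 2 (ratio of replicate 2 to replicate 1 of 0.722, interval 0.600 to 0.869). The ratio of replicate 2 to DMSO was 1.20 (0.975 to 1.47). The mean difference of 0.37 ± 0.31 (SE) was not called (limma adjusted p = 0.778). Tmem30a, the CDC50 subunit that carries such flippases to the cell surface, had 24.99 and 15.4 RPKM with TUDCA and 14.5 RPKM in DMSO, and was not called either (difference 0.41, limma adjusted p = 0.631).

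**Figure D3:**
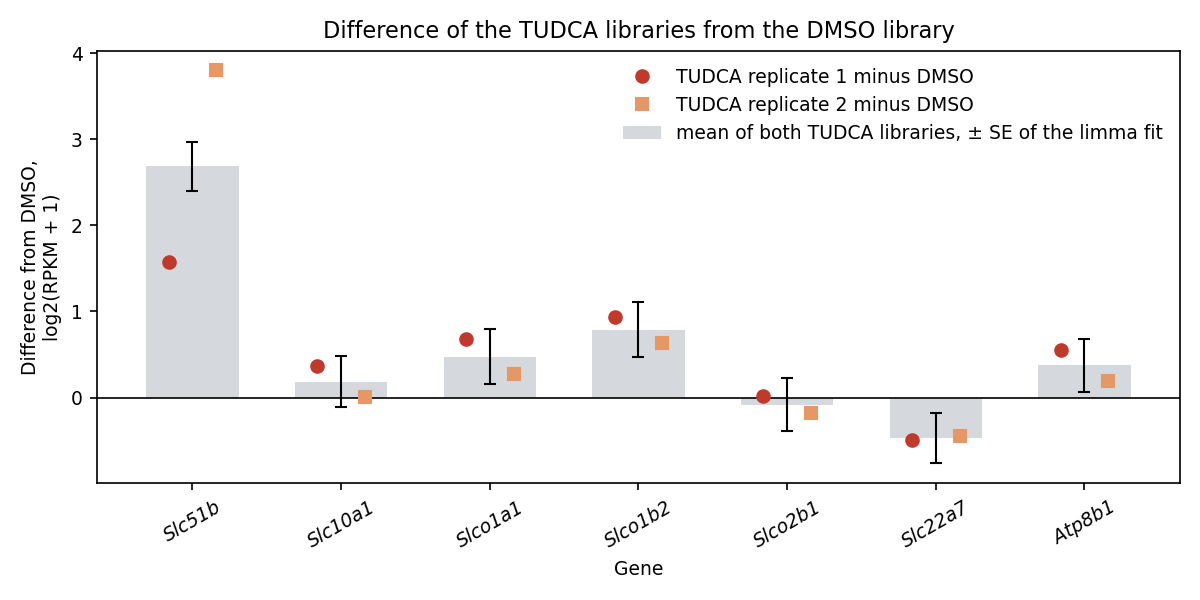
Difference of each TUDCA library from the DMSO library on the log2(RPKM + 1) scale for the 7 genes tested, as points, with bars for the mean of both and the SE of the limma fit, which uses a spread pooled over genes. For Slc51b the points lie outside the SE at 1.57 and 3.80. Slc22a7 lies below 0 in both libraries, at -0.49 and -0.45.

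The order of the levels changed at the top. Slc51b was first in both TUDCA libraries and ranked 5 in DMSO, where Slc22a7 led. In TUDCA replicate 1 neighbours among Slc51b, Slc10a1, Slc22a7 and Atp8b1 had overlapping 95% intervals, and Slco2b1, Slco1a1 and Slco1b2 formed a lower chain. In TUDCA replicate 2 Slc51b stood apart from Slc22a7, and from there down to Slco1b2 neighbours overlapped. In DMSO Slc22a7 stood apart from Slc10a1, and the chain from Slc10a1 to Slco1a1 overlapped. Slco1b2 was the lowest of the 7 genes tested and Slco1a4 and Slc51a were last in all 3 libraries.

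Most of these genes had low to middling levels among expressed genes. Slc51b exceeded 52.3% and 79.6% of the genes above 0 with TUDCA, against 37.7% in DMSO. Slc22a7 exceeded 48.2% and 49.0% with TUDCA, against 55.2% in DMSO. The RPKM of the 9 genes summed to 28.1 and 51.4 with TUDCA and 19.6 in DMSO, and Slc51b made up 23.2% and 66.4% with TUDCA and 7.78% in DMSO. Without Slc51b the sums were 21.5 and 17.3 RPKM with TUDCA and 18.0 RPKM in DMSO, so that TUDCA libraries lay on both sides of DMSO. Of the 7 genes tested, 5 were higher in TUDCA replicate 1 than in replicate 2, as were 53.2% of all genes tested and 7 of the 9 hepatocyte markers.

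In the related carrier families 0 of 23 genes tested were called in limma, which is near the 2.65% called over all genes tested. At an unadjusted p under 0.05 there were 0 such genes in the same fit, against 10.8% of all genes tested. With voom on whole reads there was 1 such gene, against 1226 of all 11300 genes. Of 11 other Slco genes, 2 passed the filter, and Slco2a1, a prostaglandin carrier, had the highest level of the family with 32.0 and 32.7 RPKM under TUDCA and 28.4 RPKM in DMSO. Of 24 other Slc22 genes, 7 were tested and not called (median difference 0.25). Of 6 other Slc10 genes, 3 were tested, with the ileal bile acid carrier Slc10a2 at 1.32 and 1.22 RPKM with TUDCA and 1.37 RPKM in DMSO, or 8 reads there. Of 17 other flippase genes and CDC50 subunits, 11 were tested and not called, with a median difference of 0.22.

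Efflux at the canalicular membrane and ABC efflux had 15 genes tested, of which 1 was called higher and 0 lower, against 1.77% and 0.876% of all genes (median difference 0.36, against 0.04 over all genes). That gene was Abcb4, the phosphatidylcholine floppase of the canaliculus, with 103.9 and 116.5 RPKM with TUDCA and 31.6 RPKM in DMSO (difference 1.77, limma adjusted p = 2.5e-13). Abcc3, an ABC exporter of the basolateral membrane, had 533.5 and 461.7 RPKM with TUDCA and 384.3 RPKM in DMSO. Abcc4, which exports bile acids at the same membrane, had 11.0 and 15.5 RPKM with TUDCA and 15.4 RPKM in DMSO. Neither was called (limma adjusted p = 0.507 and 0.886). Abcb11, also on this list, had 4.66 and 4.35 RPKM with TUDCA and 3.29 RPKM in DMSO. It was not called (difference 0.36, limma adjusted p = 0.788). By RPKM, Abcc3 was far above every gene of the carrier group in all 3 libraries.

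Among 16 tested nuclear receptors and other factors that control these transporters, 5 were called higher and 0 lower, against 1.77% and 0.876% of all genes tested. Their median difference was 0.45, against 0.04 over all genes. The related lists, this one included, were chosen with earlier results of these data known. Their shares called are therefore descriptions and no independent evidence. Nr0b2 had 5.43 and 22.8 RPKM with TUDCA and 1.15 RPKM in DMSO, a call lost under robust estimation (limma adjusted p = 0.855). The xenobiotic receptor gene Nr1i2 (PXR) had 16.3 and 24.6 RPKM with TUDCA and 5.09 RPKM in DMSO. FXR itself (Nr1h4) had 17.9 and 12.0 RPKM with TUDCA and 6.26 RPKM in DMSO. Nfe2l2, the oxidative stress factor NRF2, had 140.3 and 148.7 RPKM with TUDCA and 80.4 RPKM in DMSO. Differences for the last 3 were 1.79, 1.11 and 0.84 (limma adjusted p = 7.1e-09, 0.00326 and 0.00423). Hnf4a, a hepatocyte factor counted among the 5, had 198.6 and 191.2 RPKM with TUDCA and 115.0 RPKM in DMSO. Nfe2l2 and Hnf4a lost their calls under median centring (limma adjusted p = 0.0773 and 0.153) and without a variance trend (0.0866 and 0.16).

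Of 10 tested FXR targets that are not transporters, 4 were called higher and 0 lower, beside the same 1.77% and 0.876% of all genes. Their median difference was 0.21, against 0.04 over all genes. Besides Nr0b2, these were Insig2, a regulator of sterol synthesis, at 206.5 and 207.9 RPKM with TUDCA and 102.3 RPKM in DMSO, and the apolipoprotein gene Apoc2, at 286.0 and 221.9 RPKM with TUDCA and 129.2 RPKM in DMSO. The fourth was Fgfr4, the hepatic receptor for the ileal hormone FGF15, at 16.8 and 13.3 RPKM with TUDCA and 7.48 RPKM in DMSO. Differences for these 3 were 1.01, 0.96 and 0.91 (limma adjusted p = 9.3e-05, 2.3e-04 and 0.0334). The other 6 tested were not called. Of them, Pltp, Sdc1, Apoc3 and Cdkn1a had negative differences, and Fetub and Kng1 had positive ones. This list too was chosen with earlier results of these data known. Fgf15 was at 0 in every library. Fgfr4 lost its call under quantile normalization, median centring and voom (limma adjusted p = 0.12, 0.0634 and 0.0604).

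**Figure D4:**
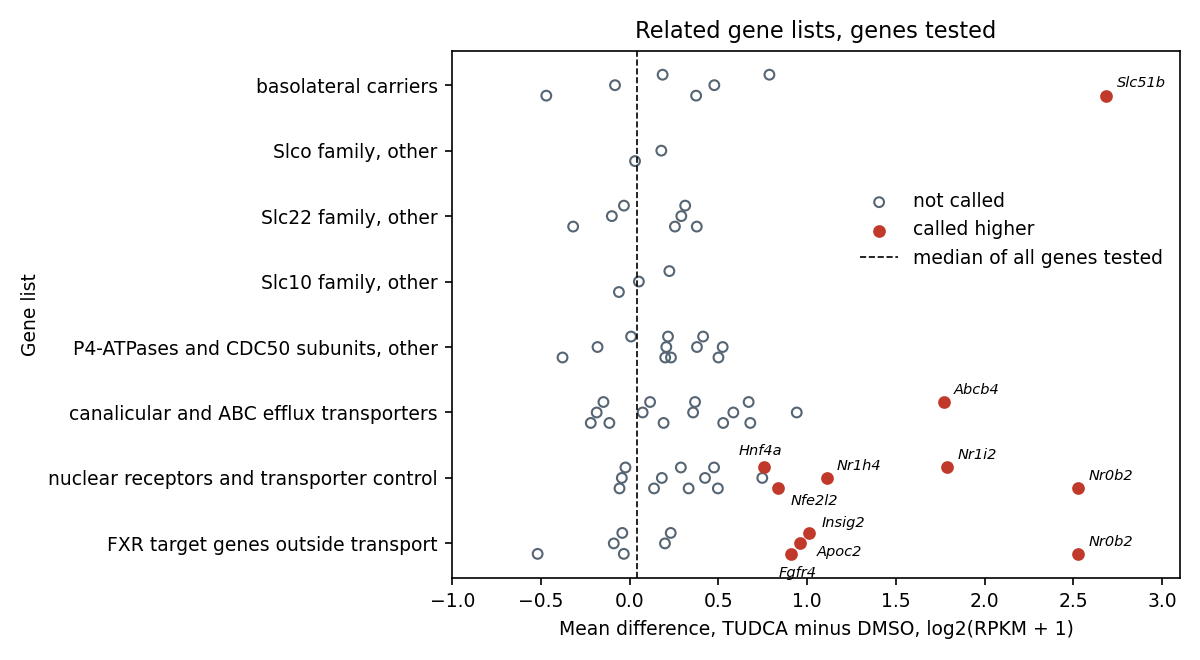
Mean difference of TUDCA from DMSO on the log2(RPKM + 1) scale for each tested gene of the carrier group and of 7 related lists (rows). Filled points were called higher at an adjusted p under 0.05, open points were not called, and the dashed line is the median of all genes tested at 0.04. Nr0b2 belongs to both lower lists, and no gene of the lists shown was called lower.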

How the data were processed

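The authors deposited RPKM values, 1 table per library, for 37620 Ensembl genes. Tools listed, per the submitters' processing notes, are HTSeq, Bowtie2, TopHat2 2.0.7 and CASAVA, with no roles. Build, annotation, strand setting: not given in the sources used here. Symbols were matched by identifier in GENCODE M21 for 32897 genes.

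For the 19146 genes above 0, a length that made all 3 values whole reads (within 1e-06) was found. The smallest such reads add up to 95.7 to 95.8% of the library totals, and a gene may hold a multiple of them. Values were tested as log2(RPKM + 1) at a mean of 1 RPKM or more, in 11300 genes, with limma 3.58.1 in R 4.3.3 (trend, Benjamini-Hochberg adjustment over all genes, threshold 0.05). The 1 residual degree of freedom comes from the TUDCA libraries, prior degrees of freedom were infinite, and DMSO was assumed to vary like them. The fit was also run on simulated reads with the same dispersion for every gene. That setting does not cover genes whose TUDCA libraries disagree, such as Slc51b. Poisson and conditional binomial intervals (SciPy 1.17.1) are exact at 95%.

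Gene lists hold 148 entries besides the carriers, 147 of them matched. Carriers and lists were chosen with earlier results of these data known. Named are all carriers, list genes that passed (the 4 largest where more did) and the 3 genes nearest to each carrier that passed. The tested FXR targets are named in full, which was decided after values were seen. Other genes given with values were picked for their role or level after values were seen. They were Abcc3, Abcc4, Abcb11, Slco2a1, Slc10a2, Tmem30a, Hnf4a, Alb, Cps1, Krt19, Krt7, Epcam, Sox9, Slc4a2 and genes that overlap carriers.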

Additional observations from a re-analysis of the deposited data

How the results depend on the processing

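Other settings tried were quantile normalization, median centring, a fit with no variance trend, robust estimation, voom on whole reads, a pseudocount of 0.1, filters at 5 RPKM or none, and omission of either TUDCA library. Without a filter, limma called 0 genes higher and 0 lower, against 200 and 99, with 0 carriers and 0 genes of the transport, receptor and FXR target lists higher, against 1 and 9, although 1696 of 19146 genes had an unadjusted p under 0.05. Limma then estimated 1.11 prior degrees of freedom in place of infinitely many. Robust estimation called 0 carriers. Slc51b was called under the other 6 tested alternatives (differences of 2.56 to 3.24), and its adjusted p over all 8 ran up to 0.880. No other carrier was called under any. The filter at 5 RPKM left 2 carriers. Slc51b passed it only through the TUDCA libraries and Slc22a7 only through DMSO, so the call of Slc51b there adds no support. The median difference of these 2 carriers was 1.11 in place of 0.37 and does not stand for the group. Leaving out TUDCA replicate 1 or 2 leaves no residual degree of freedom, so these are values with no test: the median was 0.19 without replicate 1 and 0.56 without replicate 2, and that of Slc51b 3.80 and 1.57. For Slco2b1 it was -0.18 and 0.016. Median centring moved the median of all genes by -0.07. Where a carrier had fewer than 100 reads in a library, its counting error was wide, as the intervals above show. The part of counting error in the calls was not tested. No paired analysis was possible because DMSO has 1 library.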
